A study of Mus musculus with 6 samples.

Results

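The replication-dependent histone genes encode the H1, H2A, H2B, H3 and H4 proteins that package newly copied DNA. They were taken from the RefSeq annotation of the mouse genome by symbol, as protein-coding genes named in the H2ac, H2bc, H3c or H4c series or H1f1 to H1f5. The rule gave 62 genes of 21887 protein-coding genes on the assembled chromosomes: 5 for H1, 17 for H2A, 16 for H2B, 12 for H3 and 12 for H4. They lay in 3 clusters on the mm10 build. The cluster on chromosome 3 spanned chr3:96219885-96270192 and held 10 of the genes. On chromosome 13, cluster A spanned chr13:21715711-22043658 with 22 genes and cluster B spanned chr13:23531044-23934913 with 30 genes.

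These genes are transcribed mainly in S phase, when replicating DNA needs histones, and their mRNAs end in a stem-loop rather than a poly(A) tail. H2A, H2B, H3 and H4 form the nucleosome core, and H1 binds the DNA that links nucleosomes. Many H2A and H2B genes sit head to head and share the short promoter between them. WDR5 is a scaffold subunit of the KMT2/SETD1 enzymes that methylate lysine 4 of histone H3, and the trimethylated form, H3K4me3, marks many promoters.

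The study used ChIP-seq for WDR5 and H3K4me3, in which crosslinked chromatin is pulled down with an antibody and its DNA sequenced, in mouse embryonic stem cells with a GFP knock-in at Rx, grown in 2i+LIF. Both lines lacked Wdr5 and p53. The WT line was rescued with WDR5WT, and the mutant line with WDR5 carrying S91K and Y191F, as the labels number them. Cells were fixed in 1% formaldehyde for 10 minutes, and each line gave 1 WDR5 library, 1 H3K4me3 library and 1 input. The labels do not say whether a line was 1 clone or a pool, or how the rescue protein was expressed.

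The 4 deposited peak lists held 11095 WDR5 peaks in the WT line, 26888 WDR5 peaks in the mutant line, and 71695 and 74305 H3K4me3 peaks. Read depth is unknown, and the 2 inputs were not analysed here. With 1 library per antibody and line there is no replicate check, no test was made, and the intervals given are exact (Clopper-Pearson) 95% binomial intervals that cover counting error only. A fold, −log10 p or −log10 q is the authors' own value for a peak, used within its list. Of 9 pluripotency genes, among them Sox2 and Nanog, 8 had an H3K4me3 peak in both lines, while 6 of 7 fibroblast markers had one in the WT line and 3 of 7 in the mutant line. What the fibroblast marker peaks contribute to the values below was not tested.

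The promoters of 4 genes are printed first, because they carry WDR5 peaks described below and differ in the elements known from histone promoters. Each runs from 250 bases before the annotated start to 50 after it, 5′ to 3′ in gene direction, from RefSeq on GRCm38.p6, which has the coordinates of mm10. Capitals mark matches on either strand to the TATA element TATAAA, to CCAAT, to the octamer ATTTGCAT and to the H1 element AAACACA. H1f5, a linker histone gene, is at chr13:21780576-21780875, minus strand. H2bc14, an H2B gene, is at chr13:21721794-21722093, plus strand. H3c6, an H3 gene, is at chr13:23562336-23562635, minus strand. H4c18, an H4 gene, is at chr13:21832148-21832447, minus strand.
H1f5: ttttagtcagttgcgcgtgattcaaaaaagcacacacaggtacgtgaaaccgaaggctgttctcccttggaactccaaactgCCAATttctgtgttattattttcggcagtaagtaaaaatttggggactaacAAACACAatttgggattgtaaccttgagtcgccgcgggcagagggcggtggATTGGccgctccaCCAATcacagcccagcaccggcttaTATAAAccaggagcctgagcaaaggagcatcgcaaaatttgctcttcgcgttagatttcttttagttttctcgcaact
H2bc14: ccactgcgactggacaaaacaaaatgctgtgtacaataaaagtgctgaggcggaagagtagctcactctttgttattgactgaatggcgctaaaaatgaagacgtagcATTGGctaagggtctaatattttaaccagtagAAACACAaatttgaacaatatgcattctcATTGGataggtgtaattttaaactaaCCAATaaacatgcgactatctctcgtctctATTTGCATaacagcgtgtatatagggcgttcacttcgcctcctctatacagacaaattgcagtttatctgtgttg
H3c6: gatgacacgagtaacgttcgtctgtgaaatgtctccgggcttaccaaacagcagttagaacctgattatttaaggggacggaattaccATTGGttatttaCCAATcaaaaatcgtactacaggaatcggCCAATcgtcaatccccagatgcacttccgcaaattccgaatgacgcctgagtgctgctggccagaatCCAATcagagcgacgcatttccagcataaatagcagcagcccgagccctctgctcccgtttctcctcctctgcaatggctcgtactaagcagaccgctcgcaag
H4c18: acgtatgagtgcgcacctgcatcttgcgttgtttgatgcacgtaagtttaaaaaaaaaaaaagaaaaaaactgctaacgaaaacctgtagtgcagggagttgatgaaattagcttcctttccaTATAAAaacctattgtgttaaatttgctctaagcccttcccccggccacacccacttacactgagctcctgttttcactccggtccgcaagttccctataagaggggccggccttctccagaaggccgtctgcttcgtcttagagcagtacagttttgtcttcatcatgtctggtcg

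The H1f5 promoter had TATAAA at −28, counted to the first base of the match from the annotated start, and CCAAT or its complement at −168, −66 and −53. H2bc14 had an ATTTGCAT octamer, the sequence bound by POU-domain factors, at −25, and H3c6 had 4 CCAAT matches in either orientation. Such matches are letters in a window and not measured binding.

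A promoter was in the table for 57 of the 62 genes, and the same search was run on all 17492 protein-coding promoters. TATAAA was in 34 of 57 histone promoters (59.6%) and in 13.3% of all promoters. It began 20 to 40 bases before the start, on the gene's strand, in 11 of 57 (19.3%) and in 2.84% of all. CCAAT was in 49 of 57 (86%) against 39% of all. The CCAAT count divided by histone type: 46 of 46 promoters of the H1, H2A, H2B and H3 genes held it, and 3 of 11 promoters of H4 genes did. ATTTGCAT was in 12 of 57 histone promoters, 6 of 17 for H2A and 6 of 14 for H2B, and in none of the H1, H3 and H4 promoters, against 1.71% of all promoters. AAACACA, known from H1 promoters, was in 8 of 57 histone promoters (14%), against 6.13% of all. These were 4 of 5 for H1, 2 of 17 for H2A and 2 of 14 for H2B, with none for H3 and H4. No motif contains another, though some, such as CCAAT and ATTTGCAT or TATAAA and AAACACA, can share bases. The 18 genes that form head-to-head pairs have windows that overlap, so 1 match can be counted for both genes of a pair. Promoters of genes with and without a WDR5 peak held the motifs at similar shares: CCAAT was in 21 of 24 and 28 of 33, and TATAAA in 13 of 24 and 21 of 33.

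H3K4me3 covered nearly all of the histone genes. A gene counted as having a peak when one lay within 1 kb of either gene end. By that rule 59 of 62 histone genes (95.2%, interval 86.5 to 99%) had an H3K4me3 peak in the WT line, against 68.4% of all protein-coding genes. In the mutant line the same 59 genes had one, against 67.6% of all. The 59 genes took in all 30 of cluster B, all 10 of the chromosome 3 cluster and 19 of 22 in cluster A. H2ac1 and H2bc1, which encode the testis-type H2A and H2B, were among them: 1 peak lay over their start sites in each line, with fold 6.78 and 1573 bp in the WT line and fold 6.68 and 1460 bp in the mutant line.

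The 60 H3K4me3 peaks at histone genes in the WT line had folds from 1.47 to 13.4 with a median of 4.34, and the 53 in the mutant line had folds from 1.63 to 13.7 with a median of 4.37. The medians of the whole lists were 4.81 and 4.13. Median widths were 868 and 931 bp, against 744 and 726 bp for the lists. Each of the 53 mutant line peaks overlapped a WT line peak, and 57 of the 60 WT line peaks overlapped a mutant line peak. Of the 60 WT line peaks 32 lay at 2 or more histone genes, and of the 53 mutant line peaks 30 did. Neighbouring genes are thus not independent, although the intervals for H3K4me3 treat them so.

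The chromosome 3 cluster had the widest peaks by median. The widest H3K4me3 peak per gene had a median width of 2059 bp there in the WT line and 1964 bp in the mutant line, against 1037 and 921 bp in cluster A and 1294 and 1128 bp in cluster B. The widest in the WT line, 2494 bp with fold 7.58, covered the starts of the H2A genes H2ac21 and H2ac20 and reached into H2bc21, an H2B gene. In the mutant line the peak there was 2271 bp with fold 8.75. Next came the peak of H2ac4 and H3c2, an H2A and an H3 gene in cluster B, with 2194 bp in the WT line and 2044 bp in the mutant line. All H3K4me3 peaks in a span, at histone genes or not, covered 20% of the chromosome 3 cluster in the WT line and 19.6% in the mutant line. They covered 16.5% and 17.5% of cluster A, and 9.49% and 8.82% of cluster B. In cluster A 23 of 55 peaks in the WT line and 19 of 57 in the mutant line were at histone genes. Another 22 and 21 there were near transfer RNA genes and not at histone genes. In cluster B 29 of 36 and 27 of 38 were at histone genes, and on chromosome 3 all were.

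The fold followed another order than the width. The highest fold of a histone gene was at H4c18 in both lines, 13.4 in the WT line and 13.7 in the mutant line, in a peak 880 bp wide in each. H3c6 had folds of 11.6 and 9.83, and H4c3, another H4 gene, had 11 and 10.6. By type, the median of the highest fold per gene ran from 4.52 for H2B to 5.87 for H4 in the WT line, and from 4.02 for H2B to 5.87 for H4 in the mutant line. Of the 59 genes, 36 had a higher fold in the WT line and 23 in the mutant line, and 38 had the wider peak in the WT line, 17 in the mutant line and 4 neither. These folds come from lists scaled separately, so a difference between lines has no common scale.

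**Figure D1:**
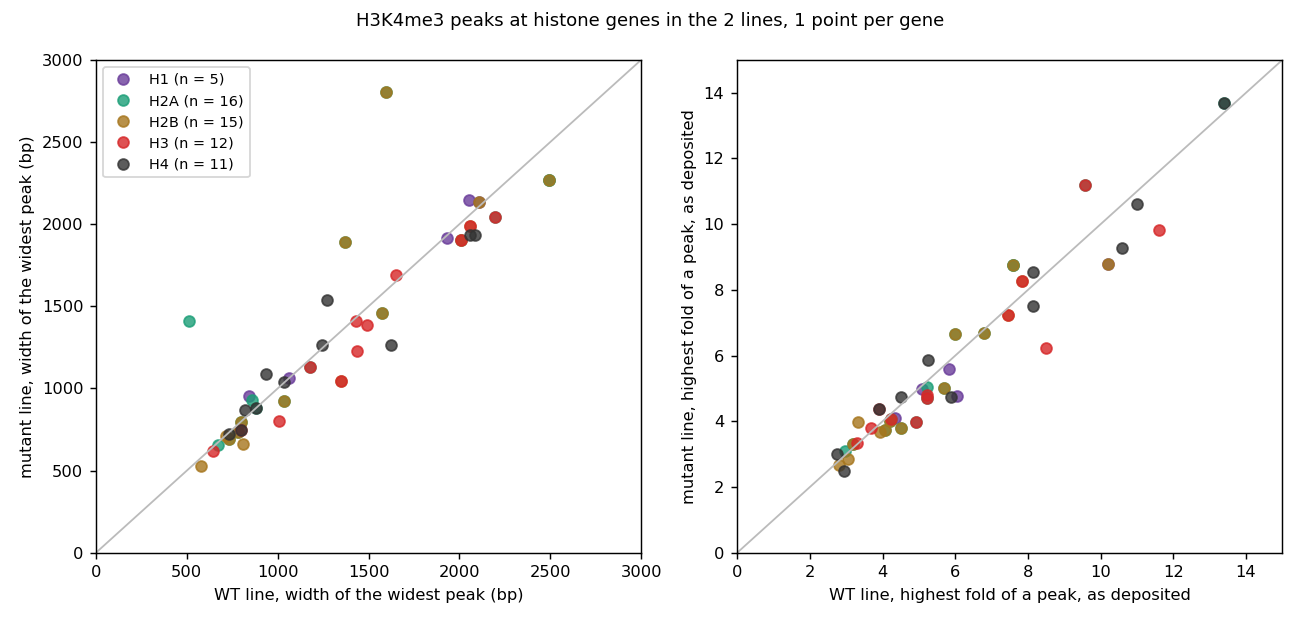
Each point is 1 histone gene with an H3K4me3 peak, with the WT line on the horizontal and the mutant line on the vertical axis, for the width of its widest peak in bp (left) and its highest deposited fold (right). Colours give the histone type and the line marks equal values. Most points lie near the line, and the gene pair farthest above it on the left is H2ac6 and H2bc4, whose 2 WT line peaks of up to 1598 bp face 1 mutant line peak of 2804 bp.

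Just upstream of the start site, fewer histone genes than genes in general were covered by an H3K4me3 peak. Among the 53 histone genes with a strand in the table and a peak within 1 kb of the start, a peak covered the base 100 bp upstream of the start in 18 (34%, interval 21.5 to 48.3%) in the WT line and in 22 (41.5%, 28.1 to 55.9%) in the mutant line. Over all protein-coding genes with such a peak, the shares were 87.1% and 88.8%. At 250 bp inside the gene the histone genes were covered in 88.7% in both lines, beside 94.3% and 94% of all genes. At 500 bp inside they were covered in 92.5% in both lines, beside 90.2% and 89.1%. At the start itself the shares were 54.7% and 62.3% of histone genes, beside 92.2% and 92.8% of all genes. Farther upstream the gap narrowed, and at −500 bp the order was reversed over all the histone genes, though not outside the head-to-head pairs described below. At −350 bp the shares in the WT line were 64.2% of histone genes and 65.2% of all genes, and at −500 bp they were 62.3% and 48.8%. The mutant line values were 56.6% and 63.1% at −350 bp, and 56.6% and 45% at −500 bp.

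At −100 bp short genes gave values between those of histone genes and of all genes. Other protein-coding genes of at most 1 kb, of which 86 had an H3K4me3 peak at the start in each line, were covered at −100 bp in 59.3% in the WT line (interval 48.2 to 69.8%) and 62.8% in the mutant line (51.7 to 73%). The intervals of the histone genes, with upper ends of 48.3% in the WT line and 55.9% in the mutant line, overlapped those of these short genes. In the WT line they barely met, and overlapping intervals do not show that the shares are equal. What gene length contributes was not tested. Inside the gene the short genes were below both: at 500 bp they were covered in 75.6% in the WT line and 70.9% in the mutant line. The position of the peak edge was read as well. Of 47 histone genes with a peak at 250 bp inside the gene, the upstream edge of that peak lay within 100 bp of the start in 26 (55.3%) in the WT line and 24 (51.1%) in the mutant line, against 8.41% and 6.4% of all genes. The median edge was at −31 bp from the start in the WT line and −79 bp in the mutant line, against −471 and −453 bp for all genes.

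Most of the head-to-head H2A and H2B pairs found here had peaks on both sides of the shared promoter and none across it. Among the 57 genes with a strand in the table there were 9 pairs whose starts pointed away from each other. Between the starts lay 164 to 281 bp with a median of 180 bp, and 8 of the 9 pairs had H3K4me3 peaks. Genes without a strand could not be paired. H2ac6 and H2ac20 lie beside 2 such genes, H2bc4 and H2bc21, and are counted as unpaired below, so the pair counts may be incomplete. The midpoint between the starts was covered by H3K4me3 in 2 of the 9 pairs in the WT line, H2ac1 with H2bc1 and H2ac13 with H2bc13, and in 3 in the mutant line, where H2ac12 with H2bc12 joined them. At H2ac15 and H2bc15, whose starts are at 21753912 and 21754076 of chromosome 13, the WT line peaks were chr13:21753135-21753866, chr13:21754132-21754310 and chr13:21754506-21755101, with no peak over the interval between the starts. The mutant line had 3 peaks at nearly the same places, chr13:21753130-21753822, chr13:21754118-21754322 and chr13:21754499-21755049. At H2ac12 and H2bc12 the WT line had 2 peaks, chr13:22034275-22035645 and chr13:22035966-22036524, and the mutant line had 1 peak, chr13:22034577-22036465, that ran through. Among the 16 paired genes with a peak, 15 were covered at −500 bp and 4 at −100 bp in the WT line, and 14 and 6 in the mutant line. Of the 37 genes counted outside such pairs, 18 were covered at −500 bp and 14 at −100 bp in the WT line. In the mutant line 16 were covered at each of these positions, and 14 at −150 bp. At −100 bp these genes were covered in 37.8% in the WT line and 43.2% in the mutant line, against 87.1% and 88.8% of all genes. At −500 bp they were covered in 48.6% and 43.2%, beside 48.8% and 45% of all genes, so they did not show the reversed order. Since genes of a pair share their upstream sequence, they are not independent counts.

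**Figure D2:**
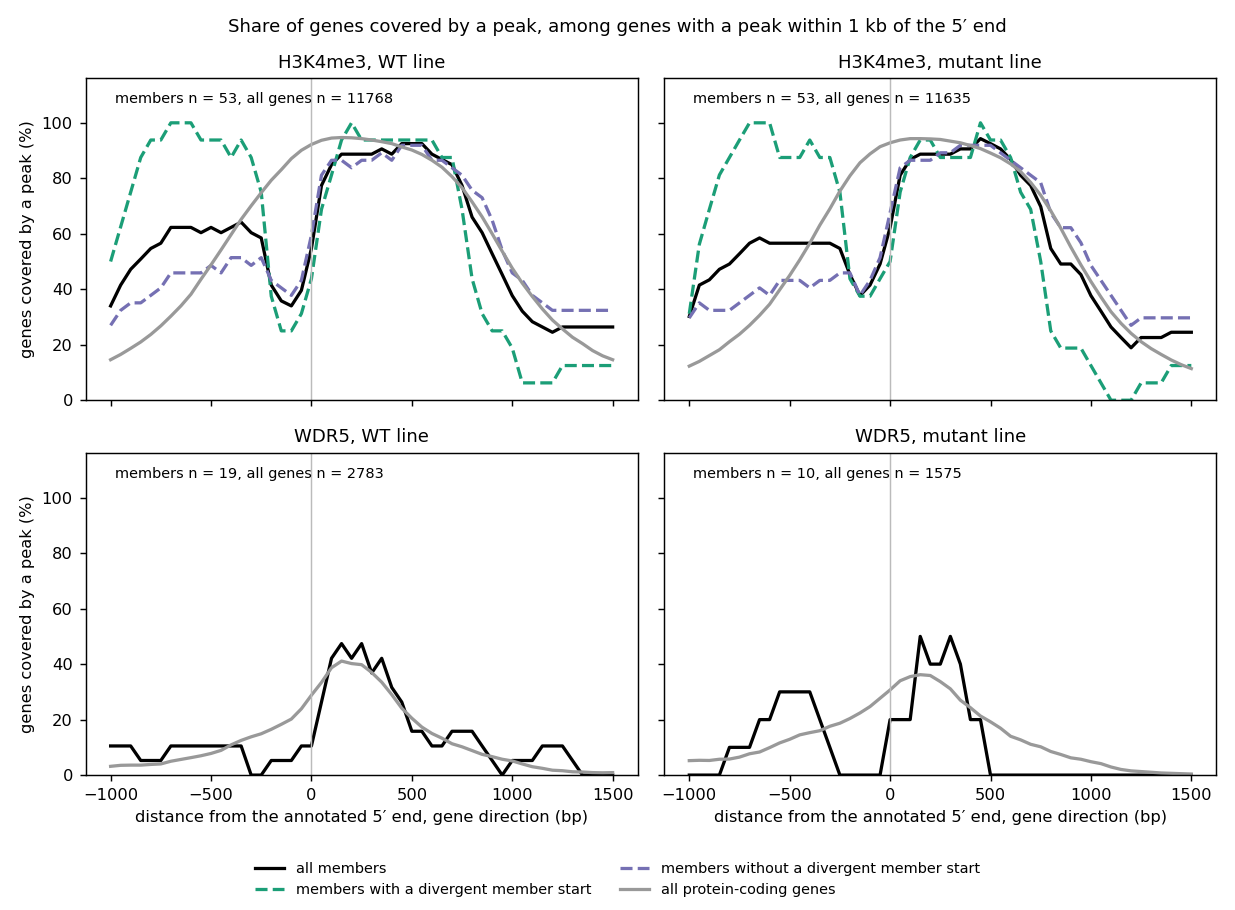
The vertical axis is the share of genes covered by a peak (%) at each distance from the annotated 5′ end in gene direction (bp), among genes with a peak within 1 kb of it, for H3K4me3 (top) and WDR5 (bottom) in the WT line (left) and mutant line (right). The black line for histone genes dips upstream of the start for H3K4me3, to 34% at −100 bp in the WT line, where the grey line for all genes is at 87.1%. Dashed lines split the histone genes by whether another histone gene with a strand in the table starts head to head with them.

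WDR5 peaks were fewer. In the WT line 22 of 62 histone genes (35.5%, interval 23.7 to 48.7%) had one, against 16.3% of all protein-coding genes. In the mutant line 12 of 62 (19.4%, 10.4 to 31.4%) had one, against 10.7% of all. Both lines had one at 7 genes (11.3%), against 4.33% of all. Among genes with an H3K4me3 peak in the same line, the histone share was 22 of 59 (37.3%, 25 to 50.9%) in the WT line against 23.3%, and 12 of 59 (20.3%, 11 to 32.8%) in the mutant line against 13.9%. Some genes share a peak: 21 distinct WDR5 peaks in the WT line and 9 in the mutant line account for these counts, so neighbouring genes are not independent.

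Most of these peaks were weak. The authors' lists admitted peaks from a −log10 p of 2.00 upward, and the median at histone genes was 3.64 in the WT line and 3.49 in the mutant line, near the medians of the whole lists at 3.57 and 3.22. When a −log10 q of 2 or more was required, 1 histone gene remained in the WT line (1.61%, against 2.35% of all genes), H2bc14. In the mutant line 3 remained (4.84%, against 1.72%), H2bc13, H2ac13 and H4c8. These genes rest on 2 peaks: 1 shared by H2bc13 and H2ac13, and that of H4c8, which lay on a transfer RNA gene. At this threshold 0 histone genes had a peak in both lines. Folds ran from 1.82 to 4.2 with a median of 2.67 in the WT line, where the list median was 2.66, and from 1.82 to 4.73 with a median of 2.37 in the mutant line, where it was 2.5.

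The strongest WT line peak was at H2bc14, whose promoter is printed above. It was chr13:21722251-21722433, with fold 4.20 and −log10 q 3.44, and its summit lay inside the gene. No WDR5 peak was listed at H2bc14 in the mutant line. H3K4me3 at H2bc14 was low for the group, with a highest fold of 3.05 in the WT line and 2.84 in the mutant line.

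The H1 genes had 3 with a WDR5 peak in the WT line and 2 in the mutant line, of 5. H1f5 had one in both lines, with fold 2.74 in the WT line and 2.77 in the mutant line, and the peaks overlapped at chr13:21780112-21780535 and chr13:21780138-21780350, just inside the start. H1f2 had 3 WT line peaks, the best with fold 3.05 and −log10 q 1.24, and none in the mutant line. H1f3 had a WT line peak of fold 2.67 and H1f1 a mutant line peak of fold 1.82. H1f4, with one of the widest H3K4me3 peaks at 2110 bp in the WT line and 2135 bp in the mutant line, had no WDR5 peak in either line.

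Of the H2A and H2B genes, 4 of 17 and 5 of 16 had a WDR5 peak in the WT line and 2 of 17 and 3 of 16 in the mutant line. The pair H2bc13 and H2ac13 shared a peak of fold 2.80 in the WT line and of fold 3.47 in the mutant line, the latter with −log10 q 2.46. H2ac15 and H2bc15 shared 2 WT line peaks of fold 2.94 and 2.58, one on each side of the common promoter, and 1 mutant line peak of fold 2.37. None of the 9 head-to-head pairs had a WDR5 peak over the midpoint between the starts in either line. Peaks in the WT line alone were at H2bc9 (fold 2.20, shared with H3c7), at H2ac8 and H2bc8 (2.74) and at H2ac24 (1.92, shared with H4c18). H2bc3 had a peak in the mutant line alone, of fold 2.19, which was the one WDR5 peak at a histone gene with no H3K4me3 peak over it.

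Among the 12 H3 genes, 6 had a WDR5 peak in the WT line and 2 in the mutant line. H3c6 had one in both, with fold 3.31 and −log10 q 1.55 in the WT line and fold 2.08 and −log10 q 0.0171 in the mutant line. WT line peaks were also listed at H3c3 (fold 3.16), H3c7 (2.89), H3c15 (2.46), H3c10 (2.42, shared with H2ac13) and H3c11 (1.82). H3c1 had a peak in the mutant line alone, of fold 1.98, shared with the H4 gene H4c1.

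Among the 12 H4 genes, 4 had a WDR5 peak in the WT line and 3 in the mutant line. H4c14 on chromosome 3 had one in both, of fold 2.39 in the WT line and 2.77 in the mutant line. H4c3, H4c6 and H4c18 had WT line peaks of fold 2.61, 2.06 and 1.92, and H4c8 and H4c1 had mutant line peaks. H4c18, the gene with the highest H3K4me3 fold, thus had one of the lowest WDR5 folds of the group.

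**Figure D3:**
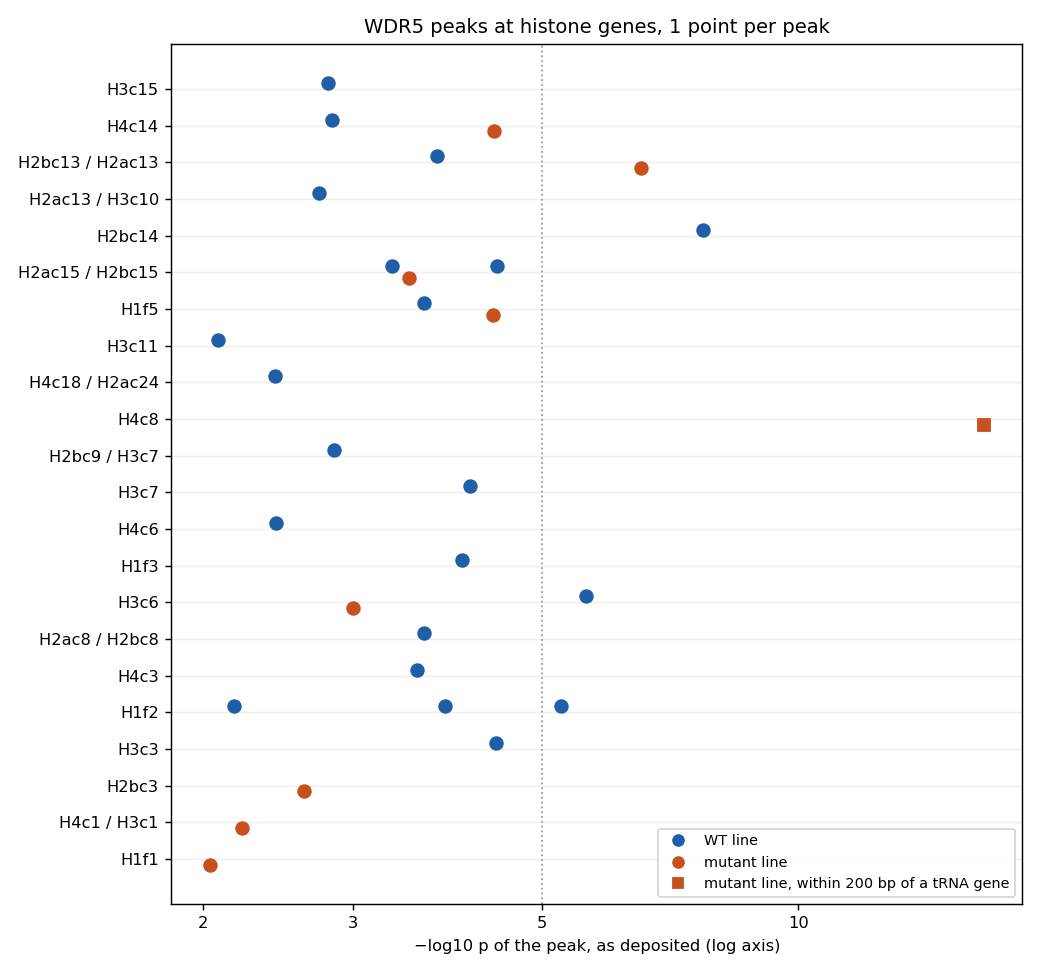
Each point is 1 WDR5 peak at the histone genes named on the vertical axis, placed by its deposited −log10 p on a log axis, with the WT line in blue and the mutant line in orange. The dotted line marks a −log10 p of 5. Of the 30 points, 3 WT line and 2 mutant line peaks lie to its right, and the square is the H4c8 peak beside a transfer RNA gene.

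The WDR5 peaks nearly all overlapped H3K4me3 peaks, with summits mostly past the start. In the WT line 21 of 21 overlapped an H3K4me3 peak of the same line (100%, interval 83.9 to 100%), against 46% of that list. In the mutant line 8 of 9 did (88.9%, 51.8 to 99.7%), against 12.3%. The whole lists also hold peaks far from genes, so these shares are not like for like. Counted by gene, all 22 histone genes with a WT line WDR5 peak had an H3K4me3 peak, beside 3496 of 3574 genes in general. In the mutant line all 12 did, beside 2050 of 2344, so high shares were usual for WDR5 peaks at genes. Peaks of one line overlapped a WDR5 peak of the other in 5 of 21 in the WT line (23.8%, 8.22 to 47.2%) and 5 of 9 in the mutant line (55.6%, 21.2 to 86.3%). Over the whole lists, again with peaks far from genes, it was 12.3% and 5.09%. Counted by gene, 7 of the 22 histone genes with a WT line peak had one in both lines, beside 948 of 3574 in general. Of the 12 with a mutant line peak 7 did, beside 948 of 2344. When a reciprocal overlap of 50% was required, 2 of 21 WT line peaks (9.52%) and 2 of 9 mutant line peaks (22.2%) overlapped one of the other line. The nearest WDR5 summit was at a median of 164 bp inside the start over 19 genes in the WT line and 106 bp over 10 genes in the mutant line, beside 160 and 115 bp over all genes with a WDR5 peak at the start. The nearest H3K4me3 summits were at 250 and 292 bp, beside 195 and 193 bp over all genes.

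The strongest WDR5 peak at a histone gene lay on a transfer RNA gene. The mutant line peak chr13:23530204-23530705 counted for H4c8, with fold 4.73 and −log10 q 12.0, and covered n-TMcat9, a methionine transfer RNA gene at chr13:23530348-23530419. H4c8 begins at 23531044. It was the 1 WDR5 peak at a histone gene within 200 bp of a transfer RNA gene in the mutant line, and there was none in the WT line. The H3K4me3 peaks of H4c8 in both lines also came within 200 bp of that gene, as no other H3K4me3 peak at a histone gene did. Without peaks near transfer RNA genes, 22 and 11 histone genes had a WDR5 peak and 58 and 58 an H3K4me3 peak.

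Cluster A also holds 31 transfer RNA genes, apart from the histone genes, and of the 3 clusters it had the largest difference in WDR5 peak number between the lines. Its span held 12 WDR5 peaks in the WT line, 8 at histone genes and 2 near transfer RNA genes. In the mutant line it held 33, 3 at histone genes and 27 near transfer RNA genes, and none of those 27 was at a histone gene. The span of cluster B held 12 WDR5 peaks, 11 at histone genes, in the WT line and 8, 4 at histone genes, in the mutant line. The mutant line peak of H4c8 lies just outside this span and is not in these span counts. The chromosome 3 cluster, with no transfer RNA gene, had 2 and 1, each at a histone gene. The number of histone genes with a WDR5 peak was 10 of 22 and 5 of 22 in cluster A, 10 of 30 and 6 of 30 in cluster B, and 2 of 10 and 1 of 10 on chromosome 3, with the WT line first.

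**Figure D4:**
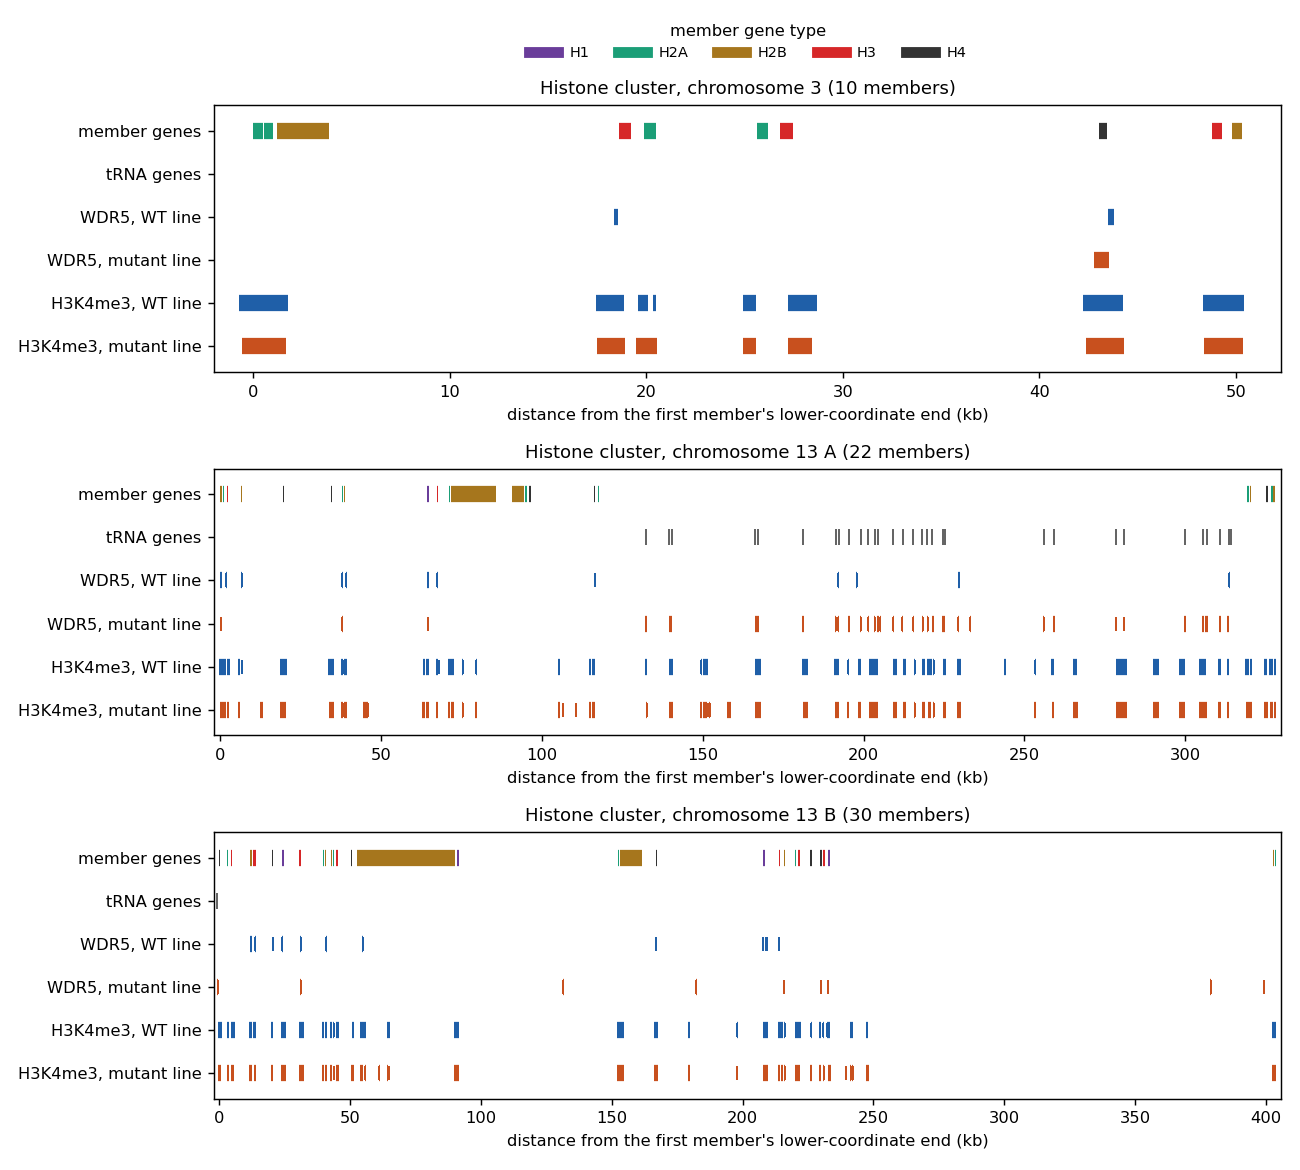
The 3 panels show the histone clusters, with distance from the lower-coordinate end of the first histone gene in kb on the horizontal axis and tracks for histone genes coloured by type, transfer RNA genes, and the 4 peak lists (blue for the WT line, orange for the mutant line). Short marks have a minimum drawn width. The run of orange WDR5 marks in the middle panel lies over the 31 transfer RNA genes, away from the histone genes.

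The genes without H3K4me3 had promoters that largely recur elsewhere in the promoter table. The 3 with no peak in any of the 4 lists were H2bc23, H2ac23 and H4c17, an H2B, an H2A and an H4 gene beside each other in cluster A. H2ac24, an H2A gene in the same cluster, had no H3K4me3 peak at its start, and its listed peak, shared with H4c18, lay within 1 kb of its downstream end. In these 4 the share of 30-base words of the promoter found in another promoter of the table was 100%, 91.9%, 94.5% and 75.3%, in the order H2bc23, H2ac23, H4c17 and H2ac24. Of the 9 histone genes with over 50% of such words shared, 5 had H3K4me3 at the start in both lines, and of the 48 with at most 50%, 48 did. Reads from near-identical copies may not be placed on either, and the mapping settings are not given in the sources used here. What this does to the missing peaks was not tested.

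The closest pair on this measure with unequal H3K4me3 was H4c17 and H4c18. Aligned with a shift of 1 bp, 298 of 299 bases of their promoter windows were identical, yet H4c18 had the highest fold of the group in both lines and H4c17 had no peak. The H4c17 window, chr13:21811496-21811795 on the plus strand, is printed for comparison with that of H4c18 above, and capitals mark bases that differ from it or lie outside the alignment.
H4c17: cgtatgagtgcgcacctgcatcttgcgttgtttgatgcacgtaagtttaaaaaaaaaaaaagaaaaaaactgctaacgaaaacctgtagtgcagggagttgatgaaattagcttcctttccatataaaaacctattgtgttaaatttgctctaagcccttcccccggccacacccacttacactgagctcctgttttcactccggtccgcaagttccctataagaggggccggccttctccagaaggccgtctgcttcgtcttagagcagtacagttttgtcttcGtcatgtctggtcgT

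Other copies did have peaks: H3c14 and H3c15, with 284 of 285 bases identical, had H3K4me3 in both lines, with highest folds of 8.49 and 9.58 in the WT line and 6.24 and 11.2 in the mutant line. H2ac18 and H2ac19, with 249 of 260 identical, had highest folds of 5.23 and 9.58 in the WT line and 5.04 and 11.2 in the mutant line. The highest fold of H3c15 and of H2ac19 is that of 1 peak between them. The values of such copies are uncertain, since reads may be split between them.

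Related genes whose current symbols the rule does not take are given beside these counts. Of 20 genes listed here as replication-independent histone genes, 4 had a WDR5 peak in the WT line and 1 in the mutant line. H3K4me3 was at 16 and 17 of them. The WDR5 peaks were at H2az1 (fold 3.41), H2ax (3), H4f16 (2.78) and Macroh2a2 (2.73) in the WT line and at Macroh2a1 (2.25) in the mutant line. H2az1 and H2ax encode H2A variants used outside S phase as well. H4f16, H2bu2 and H1f6 of this list also match the rule by an older Hist name, so their place in this list is uncertain. They could be placed with the histone genes above, and H4f16 is 1 of the 4 genes with a WT line peak.

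Genes for histone gene transcription and 3′ end processing had WDR5 peaks at 8 of 23 in the WT line, 5 in the mutant line and 3 in both, with H3K4me3 at 22 of 23 in each. The cap-binding genes Ncbp1 and Ncbp2 had folds of 3.83 and 3.45 in the WT line, Cpsf2, a cleavage factor gene, 3.58, and Yy1, a zinc-finger factor gene, 3.53. Ncbp1 also had a mutant line peak, of fold 2.77. Of 22 histone chaperone and deposition genes, 6 and 4 had a WDR5 peak and 22 had H3K4me3 in each line. In the WT line Asf1b, a carrier of newly made H3 and H4, had fold 3.98, Nap1l4, an H2A and H2B carrier, 3.6, and Supt16 and Ssrp1, the subunits of FACT, 3.79 and 3.46.

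Of 24 S phase genes outside the clusters, 11 had a WDR5 peak in the WT line and 6 in the mutant line, with 22 carrying H3K4me3 in each line. Cdt1, which licenses replication origins, had folds of 3.47 and 3.46 in the 2 lines with −log10 q of 4.51 and 6.20. Rrm1 had fold 2.89 in the WT line. Rrm2, with Rrm1 a subunit of ribonucleotide reductase, had 2.84 and 2.34. In these 4 lists, as in the histone genes, more genes had a WDR5 peak in the WT line than in the mutant line. This is also the order over all genes, with 16.3% and 10.7%, and with 2.35% and 1.72% at a −log10 q of 2 or more. That order held at the lists' own threshold and not throughout: when a −log10 q of 2 or more was required, the counts in the WT and mutant lines were 1 and 2 for the S phase genes, 0 and 0 for the replication-independent histone genes, 3 and 0 for transcription and 3′ end processing and 3 and 1 for the chaperones, beside 1 and 3 for the histone genes.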

How the data were processed

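The submitters' processing notes name mm10 as the build and list MACS2 2.1.2 and BWA 0.7.17-r1188 beside Picard and SAMtools. Settings and the control used for each list are not given in the sources used here. Each deposited list belongs to 1 library and gives a position for each peak. The authors' other columns are a fold enrichment, the −log10 of p and of q, a summit and a score, and of these the deposited score was left unused. Depth is unknown, and the number and width of peaks depend on it. The 2 inputs were not analysed here.

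Genes, transfer RNA genes and promoters came from RefSeq tables on GRCm38.p6, and 57 of 62 members had a promoter and strand. A gene had a peak when one lay within 1 kb of either end. Members with consecutive gaps under 500 kb formed a cluster. Overlap was at least 1 bp. The lines were described side by side, with no test. Genes named were those with a WDR5 peak in either list, those without H3K4me3, the 5 with the widest WT line H3K4me3 peak, those whose peak came within 200 bp of any transfer RNA gene, and up to 4 genes of each other list by WDR5 fold. Other genes named were chosen after their values were seen. 1 gene that the rule takes is not reported here. The members and lists were chosen with earlier results of these data known. The AAACACA motif, the 30-base word measure, the start-site profile, the short genes, the head-to-head pairs and the 5 genes that match the rule by an older Hist name alone were added after seeing the data. The peak-to-gene step, tested on simulated data over 21887 genes, found 200 of 200 planted genes. The code ran in Python 3.11.15 with scipy 1.17.1, pandas 2.3.3, numpy 2.4.6 and matplotlib 3.10.9.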

Additional observations from a re-analysis of the deposited data

How the results depend on the processing

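The H3K4me3 counts were 59 of 62 genes in each line under the stricter thresholds, lists of equal length and a window of 2.5 kb. With a window of 0.2 kb, or without peaks near transfer RNA genes, they were 58 of 62. With the 5′ end alone they were 53 of 57. With 5 genes added that match the rule by an older Hist name alone, they were 63 of 67. That addition was chosen after seeing the data. The WDR5 counts depended on the threshold. When a −log10 q of 2 or more was required, the WT line count fell from 22 to 1, the mutant line count from 12 to 3 and the count in both lines from 7 to 0. With a −log10 p of at least 5 they were 3, 3 and 0. The genes left at that threshold were H2bc14, H3c6 and H1f2 in the WT line and H2bc13, H2ac13 and H4c8 in the mutant line. With the longer WDR5 list reduced to the length of the shorter, the mutant line count was 7. With a window of 0.2 kb it was 7, and the count in both lines was 4. No count over all protein-coding genes is given for the −log10 p threshold, the lists of equal length or the 0.2 kb window. Whether all genes fell alike under these settings is therefore not known. Under a reciprocal overlap of 50% the share of WDR5 peaks overlapped by H3K4me3 was 14.3% in the WT line and 11.1% in the mutant line, since WDR5 peaks are much narrower. The share overlapped by a WDR5 peak of the other line was then 9.52% and 22.2%. No paired analysis was possible because there was 1 library per antibody and line. Unknown depth and the absence of a replicate limit each comparison between the lines, and a peak missing from a list does not show that the protein or mark was absent.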
